A study of Mus musculus with 6 samples.

Results

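The insulin-like growth factor (IGF) family was described here through 10 genes, the rows of the deposited expression table whose symbol is Igf1, Igf2, Igf1r, Igf2r or one of Igfbp2 to Igfbp7, out of 31115 genes in all. RNA was sequenced from 6 libraries that the labels give as neonatal mouse cardiomyocytes, heart muscle cells of newborn mice, kept in normal culture in a medium with fetal bovine serum and collected on day 2. The control group, 3 libraries, is labelled Ad-scramble. The other 3 libraries are labelled Ad-SPTBN1 and carry the genotype βII spectrin overexpression, and βII spectrin is the membrane skeleton protein encoded by Sptbn1. The labels give neither the mouse strain, the constructs nor the purity of the cells, and whether replicates were separate cultures is not said, so the p-values speak only for the variation among these libraries, possibly technical.

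The labels were checked first. Sptbn1 measured 50.83, 48.25 and 50.08 FPKM (fragments scaled to gene length and library size) in the Ad-scramble libraries and 16.08, 16.45 and 15.75 FPKM in the libraries labelled Ad-SPTBN1, which is 32.4% of the control mean and against the label. Higher, lower, rose and fell below refer to the labels alone, Ad-SPTBN1 compared with Ad-scramble, and do not stand for an effect of more spectrin. The summed level of 15 cardiomyocyte markers was 80.6 to 86.9 FPKM in the Ad-scramble libraries, against 4280 to 4611 FPKM for 12 fibroblast markers, so the values below cannot be assigned to cardiomyocytes. The same sums were 132.2 to 137.9 and 4508 to 4731 FPKM in the libraries labelled Ad-SPTBN1. Reads recovered from the FPKM values numbered 18775304 to 19638663 in genes per library. In each library this exceeded the total fitted for the recovery, 18223037 to 19062986, so the sums are approximate. In such bulk samples, fewer cells of a type and less RNA per cell cannot be told apart.

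IGF ligands are small secreted hormones that resemble insulin and drive growth and survival through a receptor tyrosine kinase, the product of Igf1r. The product of Igf2r, which also carries mannose 6-phosphate tagged enzymes to lysosomes, takes up the ligand made by Igf2 and delivers it for breakdown. The binding proteins hold the ligands outside the cell, extend their lifetime and control how much reaches the receptor, and proteases release the ligand by cutting them. In the heart, IGF signalling is known for its part in growth of the muscle and in exchange between fibroblasts and muscle cells.

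In these cultures the family was carried by its binding proteins, and Igfbp4, Igfbp6 and Igfbp5 were lower in the libraries labelled Ad-SPTBN1, at 72.2%, 80.2% and 83.8% of the Ad-scramble mean. Of the 10 genes, 0 rose and 3 fell by limma's moderated test on log2(FPKM + 1) at an adjusted p under 0.05, where 5.54% of all 12608 tested genes rose and 5.50% fell. No gene of the family was higher at an unadjusted p under 0.05 (0 of 10), and limma's voom on recovered reads called 0 higher and 5 lower, where it called 8.50% of all genes lower. The groups did not overlap for 5 of the 10 genes, each lower in the libraries labelled Ad-SPTBN1, where 15.8% of all tested genes were lower without overlap. The 10 genes were chosen with earlier results of these data known, so these shares are a description and not a test of the family. The ligands, the receptors and the most abundant binding protein, Igfbp7, did not pass the test. All 10 genes were tested, since each had a mean above the minimum of 1 FPKM.

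**Figure D1:**
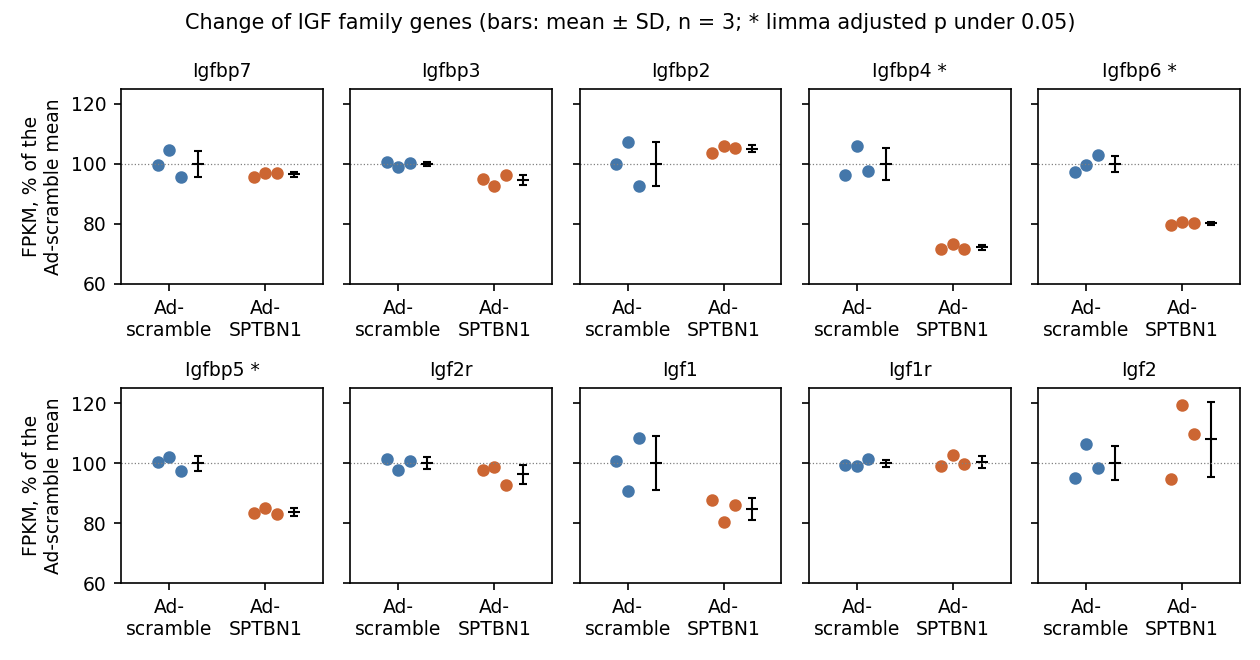
FPKM of each of the 10 genes in each library as a percentage of that gene's mean in Ad-scramble, with the mean and SD of 3 libraries beside the points; an asterisk marks a limma adjusted p under 0.05. Igfbp4, Igfbp6 and Igfbp5 lie at 72.2%, 80.2% and 83.8% of the control mean with groups apart, while Igf1r lies at 100.5% with groups overlapping. Igf1, at 84.7%, and Igfbp3, at 94.7%, also have groups apart but were not called.

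Igfbp4 encodes a binding protein that mostly restrains IGF action and is cut by the protease encoded by Pappa. It lies on GRCm38 chromosome 11, 99041244 to 99054392, on the plus strand. It measured 67.84, 74.72 and 68.87 FPKM in the Ad-scramble libraries and 50.58, 51.59 and 50.49 FPKM in the libraries labelled Ad-SPTBN1. Every library of the second group was below every library of the first, and the spread was wider among the controls. The mean fell from 70.5 ± 3.71 to 50.9 ± 0.615 FPKM (SD, n = 3), a log2 difference of -0.46 ± 0.04 (SE, limma adjusted p = 0.00123). Of the 12608 tested genes, 90 had a lower log2 difference than Igfbp4. The level rests on 4117 to 6013 reads per library, and 1.7% of the 50-base words of its transcripts occur in transcripts of other genes.

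Igfbp6 encodes a binding protein that prefers the ligand of Igf2 over that of Igf1. Igfbp6 is found on chromosome 15, 102144362 to 102149511, on the plus strand. It measured 39.22, 40.12 and 41.41 FPKM in the Ad-scramble libraries and 32.08, 32.43 and 32.34 FPKM in the libraries labelled Ad-SPTBN1. The groups stood apart, and the second group had the smaller spread. The mean fell from 40.3 ± 1.10 to 32.3 ± 0.182 FPKM (SD, n = 3), a log2 difference of -0.31 ± 0.03 (SE, limma adjusted p = 0.00202). Igfbp6 is a short gene of 1112 exon bases, so its level rests on 664 to 853 reads.

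Igfbp5 encodes a binding protein that also attaches to the extracellular matrix. Its locus is on chromosome 1, 72857932 to 72874884, on the minus strand. It measured 34.10, 34.64 and 33.02 FPKM in the Ad-scramble libraries and 28.25, 28.90 and 28.12 FPKM in the libraries labelled Ad-SPTBN1. Again no library of the second group reached the lowest of the first. The mean fell from 33.9 ± 0.824 to 28.4 ± 0.420 FPKM (SD, n = 3), a log2 difference of -0.25 ± 0.03 (SE, limma adjusted p = 0.00441). The 3 falls were called under each of the 16 alternative settings tried, including the loss of any 1 library, with adjusted p up to 0.00919 for Igfbp4, 0.0163 for Igfbp6 and 0.0250 for Igfbp5.

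The sequences upstream of the 3 genes that fell are shown because these genes moved together. Each is the stretch of 250 bases that ends just before the annotated start in RefSeq (build GRCm38.p6), read along the gene's strand. Capitals mark matches on either strand to any of 4 motifs searched. The TATA box was searched as TATAAA, at which transcription is often positioned. The GC box, which SP factors bind, was searched as GGGCGG. The CCAAT box was searched under the letters of its name. The core letters bound by FOXO factors were searched as TGTTTAC. No motif overlapped another in the stretches shown. They lie at chr11:99040994-99041243 (plus strand) for Igfbp4, chr1:72874866-72875115 (minus strand) for Igfbp5 and chr15:102143936-102144185 (plus strand) for Igfbp6.
Igfbp4: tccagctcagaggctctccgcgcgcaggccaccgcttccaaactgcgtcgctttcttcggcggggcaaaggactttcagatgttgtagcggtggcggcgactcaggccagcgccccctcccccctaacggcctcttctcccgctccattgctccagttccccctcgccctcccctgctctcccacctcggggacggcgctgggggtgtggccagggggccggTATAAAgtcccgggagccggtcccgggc
Igfbp5: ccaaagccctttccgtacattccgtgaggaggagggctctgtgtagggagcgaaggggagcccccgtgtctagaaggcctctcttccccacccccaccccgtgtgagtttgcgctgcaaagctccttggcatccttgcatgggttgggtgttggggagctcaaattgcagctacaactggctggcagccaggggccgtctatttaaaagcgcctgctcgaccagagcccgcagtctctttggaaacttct
Igfbp6: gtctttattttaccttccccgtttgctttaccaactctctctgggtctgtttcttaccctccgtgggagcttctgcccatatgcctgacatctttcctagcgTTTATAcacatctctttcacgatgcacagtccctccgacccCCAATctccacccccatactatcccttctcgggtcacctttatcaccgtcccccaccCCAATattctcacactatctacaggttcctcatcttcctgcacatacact

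The TATA box letters stood 28 to 23 bases before the start of Igfbp4. Igfbp6 held them on the opposite strand, 148 to 143 bases before the start, and held the CCAAT box 107 to 103 and 50 to 46 bases before it. Positions count from the RefSeq starts, which differ from the loci above for Igfbp5 and Igfbp6. The stretch of Igfbp6 ends at 102144185, short of the locus start at 102144362, and the bases between were not searched. That of Igfbp5 reaches into its locus, from 72874866 to 72874884. None of the 4 motifs matched in the stretch of Igfbp5. Over all 32851 RefSeq promoters of that length, 12.4% held the TATA box, 32.7% the GC box, 33.8% the CCAAT box and 3.17% the FOXO letters. The 10 genes have 14 such promoters, of which 2 held the TATA box, 6 the GC box, 3 the CCAAT box and 0 the FOXO letters. The GC box occurred 4 times upstream of Igfbp7 and at none of the 3 genes that fell. It was absent as well upstream of Igf1 and Igfbp3, which were not called. The bases G and C made up 69.2% of the stretch of Igfbp4, 58.8% of that of Igfbp5 and 49.6% of that of Igfbp6. A match is a description of the letters and not evidence of a bound site.

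Igfbp7, Igfbp3 and Igfbp2 were the most abundant genes of the family and did not pass the test. Igfbp7 encodes a secreted protein of vessel walls and mesenchymal cells that is related to the binding proteins but holds IGFs only weakly. It lies on chromosome 5, 77349240 to 77408041, on the minus strand, and 7.0% of its exon bases lie opposite Polr2b. It measured 1574.79, 1651.80 and 1512.04 FPKM in the Ad-scramble libraries and 1510.17, 1533.75 and 1532.88 FPKM in the libraries labelled Ad-SPTBN1. The groups overlapped, and the log2 difference was -0.05 ± 0.03 (SE, n = 3, 95% interval -0.13 to 0.03, limma adjusted p = 0.414). Its level exceeded that of 99.9% of tested genes in both groups.

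Igfbp3 encodes the main carrier of IGFs in blood. The gene is on chromosome 11, 7206086 to 7213923, on the minus strand. It measured 212.18, 209.09 and 211.73 FPKM in the Ad-scramble libraries and 200.26, 195.72 and 203.29 FPKM in the libraries labelled Ad-SPTBN1. All 3 libraries of the second group were below the first, yet the difference was small, at -0.08 ± 0.02 on the log2 scale, and missed the threshold (SE, n = 3, 95% interval -0.14 to -0.02, limma adjusted p = 0.0864). With voom on 11586 to 12579 recovered reads, the adjusted p was 0.0411, in a test that called 17.1% of all genes in place of 11.0%.

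Igfbp2 encodes a binding protein abundant in the fetus. It lies on chromosome 1, 72824503 to 72852474, on the plus strand, so that its end and the end of Igfbp5 face each other across 5457 bases. It measured 192.81, 207.20 and 178.33 FPKM in the Ad-scramble libraries and 200.00, 204.60 and 202.83 FPKM in the libraries labelled Ad-SPTBN1. The groups overlapped, and all 3 libraries of the second group lay inside the wider range of the controls. The log2 difference was 0.07 ± 0.05 (SE, n = 3, 95% interval -0.05 to 0.19, limma adjusted p = 0.411). The ratio of Igfbp2 to its neighbour Igfbp5 was 5.40 to 5.98 in the Ad-scramble libraries and 7.08 to 7.21 in the others.

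Summed over Igfbp2 to Igfbp7, the level was 2128 ± 86.3 FPKM in the Ad-scramble libraries and 2039 ± 15.7 FPKM in the libraries labelled Ad-SPTBN1 (SD, n = 3). Igfbp7 made up 73.9% to 74.5% of that sum in the Ad-scramble libraries and 74.7% to 74.9% in the others. Igfbp4 made up 3.20% to 3.37% and 2.46% to 2.52%, Igfbp6 1.81% to 2.02% and 1.58% to 1.59%, and Igfbp5 1.56% to 1.61% and 1.37% to 1.41%. The 3 genes that fell were thus a minor share of a sum made up mostly of Igfbp7. Without Igfbp7, the sum of Igfbp2 to Igfbp6 was 548.4 ± 16.3 FPKM in the Ad-scramble libraries. In the libraries labelled Ad-SPTBN1 it was 513.8 ± 2.99 FPKM, 93.7% of the control mean. Of this, Igfbp4, Igfbp5 and Igfbp6 together made 144.6 ± 4.32 and 111.6 ± 1.16 FPKM, the second 77.1% of the control mean. The sum of Igfbp2 and Igfbp3 was 403.8 ± 13.2 and 402.2 ± 3.36 FPKM.

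**Figure D2:**
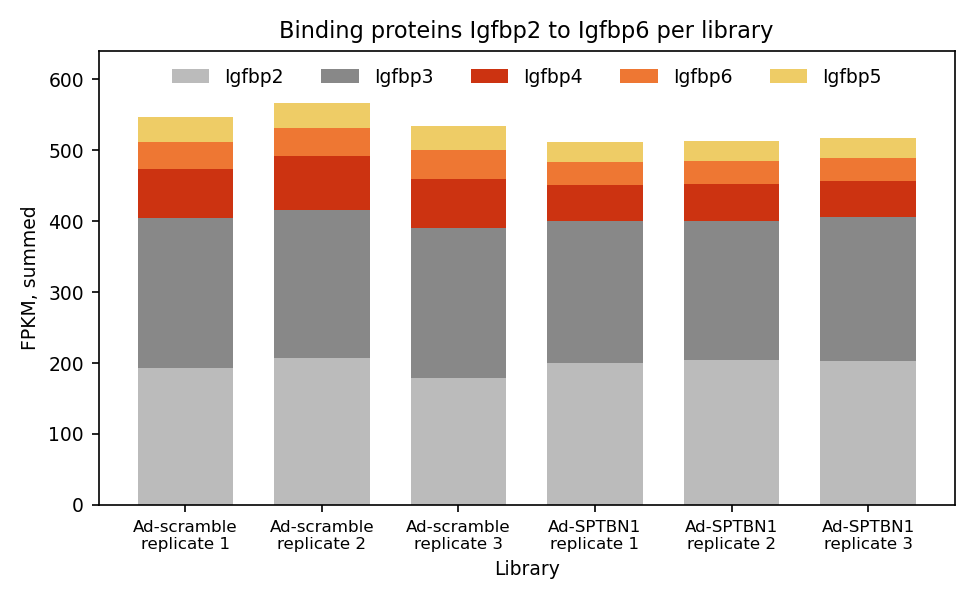
Summed FPKM of Igfbp2 to Igfbp6 in each of the 6 libraries, stacked by gene; Igfbp7, at 1512 to 1652 FPKM in the Ad-scramble libraries, is left out. The red, orange and yellow parts (Igfbp4, Igfbp6 and Igfbp5) sum to 141.2 to 149.5 FPKM in the Ad-scramble libraries and 110.9 to 112.9 FPKM in the libraries labelled Ad-SPTBN1.

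Of the ligands, Igf1 had the higher FPKM, though the value of Igf2 is uncertain for the reason given below, and neither passed the test. Igf1 encodes the ligand that in adults mediates much of the action of growth hormone. Its position is chromosome 10, 87858265 to 87937042, on the plus strand. It measured 12.34, 11.10 and 13.29 FPKM in the Ad-scramble libraries and 10.75, 9.86 and 10.52 FPKM in the libraries labelled Ad-SPTBN1. The groups did not overlap, but the gap between them was smaller than the control SD of 1.10 FPKM. The log2 difference of -0.22 ± 0.07 missed the threshold (SE, n = 3, 95% interval -0.37 to -0.06, limma adjusted p = 0.0792). The call depended on the setting: adjusted p was 0.0384 without Ad-scramble replicate 2, the lowest control, 0.0031 with voom on recovered reads, and up to 0.208 under the other 14 settings.

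Igf2 encodes the fetal ligand and is an imprinted gene, read from the paternal copy in most tissues. It lies on chromosome 7, 142650766 to 142666816, on the minus strand. It measured 1.72, 1.92 and 1.78 FPKM in the Ad-scramble libraries and 1.71, 2.16 and 1.98 FPKM in the libraries labelled Ad-SPTBN1. The groups overlapped, and the log2 difference was 0.07 ± 0.08 (SE, n = 3, 95% interval -0.11 to 0.25, limma adjusted p = 0.614). The level rests on 186 to 234 reads, where counting alone gives an SD of 7.3% at the fewest reads. In GENCODE M21, 62.8% of the exon bases of Igf2 are shared with Gm49394 on the same strand. Gm49394 is not among the genes with deposited values and the annotation release is not given. How far the overlap affects the value of Igf2 is therefore uncertain. The ratio of Igf1 to Igf2 was 5.79 to 7.45 in the Ad-scramble libraries and 4.56 to 6.27 in the others, and these ranges overlapped.

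The receptors did not pass the test. Igf1r, on chromosome 7 from 67952827 to 68233668 on the plus strand, measured 8.65, 8.62 and 8.81 FPKM in the Ad-scramble libraries and 8.62, 8.94 and 8.66 FPKM in the libraries labelled Ad-SPTBN1. The groups overlapped almost wholly, with a log2 difference of 0.01 ± 0.04 (SE, n = 3, 95% interval -0.08 to 0.09, limma adjusted p = 0.929). Igf2r, on chromosome 17 from 12682406 to 12769664 on the minus strand, measured 30.41, 29.29 and 30.14 FPKM in the Ad-scramble libraries and 29.22, 29.55 and 27.74 FPKM in the libraries labelled Ad-SPTBN1. Its groups overlapped too, with a log2 difference of -0.05 ± 0.03 (SE, n = 3, 95% interval -0.13 to 0.03, limma adjusted p = 0.379). The intervals of both receptors exclude a fall of the size seen for Igfbp5, the smallest of the 3 falls. The ratio of Igf2r to Igf1r was 3.40 to 3.51 in the Ad-scramble libraries and 3.20 to 3.39 in the others.

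FPKM values are per length, so the levels of the genes can be ordered, though the place of Igf2 is uncertain through its overlap with Gm49394. In the Ad-scramble libraries the order ran from Igfbp7 at 1580 FPKM through Igfbp3, Igfbp2, Igfbp4, Igfbp6, Igfbp5, Igf2r, Igf1 and Igf1r to Igf2 at 1.81 FPKM, and no neighbours in it overlapped over the 3 libraries. In the libraries labelled Ad-SPTBN1, Igfbp2 and Igfbp3 overlapped, at 200.0 to 204.6 and 195.7 to 203.3 FPKM. Igf2r and Igfbp5 overlapped as well, at 27.7 to 29.6 and 28.1 to 28.9 FPKM, so neither of these pairs differed beyond its spread.

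**Figure D3:**
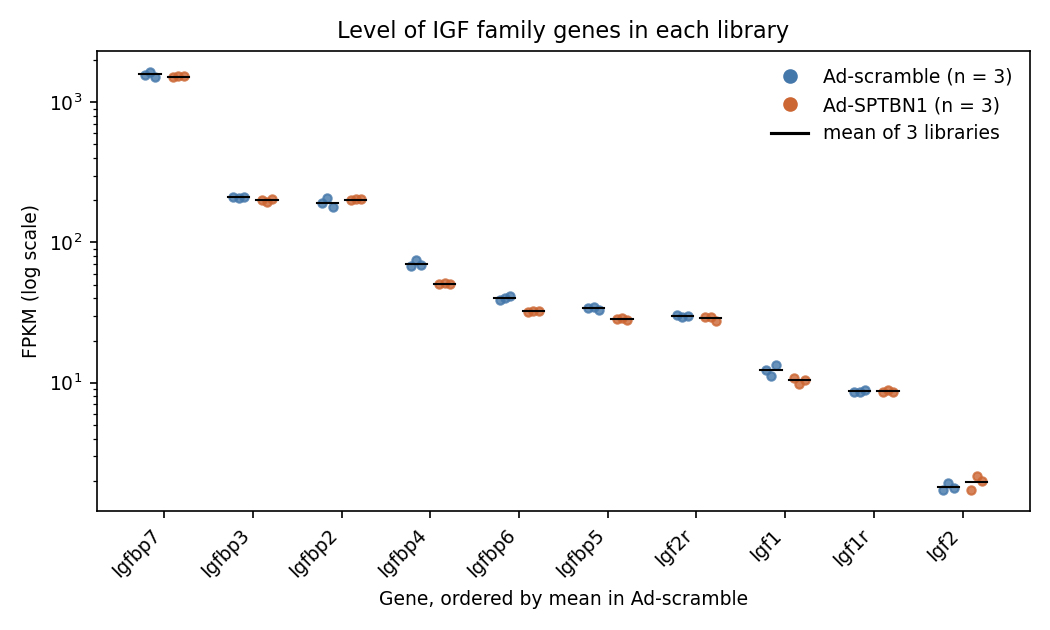
FPKM of the 10 genes on a log axis, with a point for each of the 3 Ad-scramble and 3 Ad-SPTBN1 libraries and a line at each group's mean. The genes span from 1580 FPKM for Igfbp7 to 1.81 FPKM for Igf2 in the Ad-scramble libraries. The groups do not overlap at Igfbp4, Igfbp6 and Igfbp5, nor at Igf1 and Igfbp3, which were not called.

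Markers of some cell types also differed between the groups, mainly in the fibroblast, epicardial and cardiomyocyte lists, while no endothelial or macrophage marker was called. Over all 12608 tested genes, 5.54% rose and 5.50% fell, and voom called 17.1% in either direction. Of 12 fibroblast markers 0 rose and 8 fell, with a median log2 difference of -0.158 and a range from -0.37 to 0.21, and none was at 0 in any library. At an unadjusted p under 0.05, 1 of the 12 was higher, and voom called 1 higher. Col1a1, a collagen gene and the most abundant marker of the list, went the other way from the genes that fell, at 2078 ± 152 and 2402 ± 103 FPKM with groups apart, and missed the threshold (SD, n = 3, log2 difference 0.21, 95% interval 0.08 to 0.34, limma adjusted p = 0.0560). Dpt, a matrix protein gene of fibroblasts, fell from 80.6 ± 5.15 to 62.2 ± 2.42 FPKM (SD, n = 3, limma adjusted p = 0.00665). Postn, another fibroblast gene, measured 341.6 ± 11.5 and 336.4 ± 5.77 FPKM and was not called (limma adjusted p = 0.707, n = 3). Smooth muscle and pericyte markers summed to 1907 to 1930 FPKM in the Ad-scramble libraries and 1862 to 1889 FPKM in the others, with 1 of 10 higher and 3 lower. Epicardial markers summed to 247.2 to 256.3 and 273.6 to 275.9 FPKM, with 5 of 10 higher and 0 lower, also 0 lower at an unadjusted p under 0.05 and by voom. Of 10 tested cardiomyocyte markers 7 were higher and 0 lower, again 0 lower by both. Endothelial markers, 128.4 to 136.0 and 136.1 to 141.7 FPKM in sum, had 0 of 9 called, with 1 in each direction at an unadjusted p under 0.05 and 1 called higher by voom. Macrophage markers summed to 12.4 to 12.8 and 12.2 to 12.8 FPKM, with 0 of 3 tested called by either tool or at an unadjusted p under 0.05, and C1qa, C1qb, Adgre1 and Ptprc were listed at 0 in at least 1 library. The part of the cell mix in the lower level of Igfbp4, Igfbp5 and Igfbp6 was not tested.

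The genes most like the 3 binding proteins over the 6 libraries were listed by Pearson's r of log2(FPKM + 1) among 6842 other genes whose mean reached 5 FPKM. For Igfbp4 these included Cygb (r = 0.998) and Pth1r (0.998). For Igfbp6 they were Col4a1 (0.999), Ell2 (0.998) and Gsn (0.998), and for Igfbp5 Adamts2 (0.997), Epb41l1 (0.996) and Synpo (0.996). Cygb, the gene of cytoglobin, went from 18.2 ± 1.50 to 12.1 ± 0.228 FPKM (SD, n = 3), and Col4a1, a basement membrane collagen gene, from 939.2 ± 7.47 to 855.8 ± 0.554 FPKM. The libraries form 2 groups, so an r this high reflects mainly the difference between them, and 249, 260 and 254 genes had an r above 0.95 with Igfbp4, Igfbp6 and Igfbp5. Among themselves the 3 binding proteins had r of 0.958 to 0.988.

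Around the family, 107 other genes of the pathway were placed in 6 lists, of which 106 had values and 94 were tested. Of these 7 rose and 10 fell, against 11.0% of all tested genes called in either direction, and their median log2 difference was -0.002 against 0.002 over all tested genes. The shares to set beside each list below are 5.54% of all tested genes higher and 5.50% lower, and 17.1% called by voom in either direction. In the list of other ligands, receptors and carriers, 0 of 7 tested genes rose and 2 fell, with 1 gene higher at an unadjusted p under 0.05 and 1 called higher by voom. M6pr, the smaller of the mannose 6-phosphate receptors, fell from 32.4 ± 0.610 to 28.8 ± 0.138 FPKM (SD, n = 3, limma adjusted p = 0.0132), a call lost without Ad-SPTBN1 replicate 3 (0.0525). Lrp1, a large uptake receptor that binds Igfbp3 protein among many ligands, fell from 87.9 ± 1.21 to 80.4 ± 1.29 FPKM (SD, n = 3, limma adjusted p = 0.0237). That call held with Ad-scramble replicate 2 left out and was lost when any other library was (0.0569 to 0.0842). Igfbp1, a binding protein of liver, was at 0.0344 to 0.144 FPKM and was not tested.

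Among 12 tested proteases of binding proteins and their inhibitors, 1 rose and 2 fell. Timp1, an inhibitor of metalloproteinases, rose from 552.4 ± 26.4 to 685.6 ± 29.6 FPKM (SD, n = 3, limma adjusted p = 0.00725). Htra3, a secreted serine protease, measured 20.05, 21.70 and 20.50 FPKM in the Ad-scramble libraries and 16.21, 15.62 and 16.15 FPKM in the others. It fell by 0.36 on the log2 scale with groups apart (limma adjusted p = 0.00297). Adam12, a metalloproteinase that cuts binding proteins, fell by 0.24 (limma adjusted p = 0.0245), a call that did not survive the loss of any library except Ad-scramble replicate 2 (0.0576 to 0.0794). Pappa, whose protein cuts the product of Igfbp4, measured 10.5 ± 0.703 and 10.9 ± 0.311 FPKM (SD, n = 3) and was not called (limma adjusted p = 0.577), and Htra1, a secreted serine protease related to the product of Htra3, measured 93.0 ± 2.97 and 95.1 ± 1.39 FPKM (limma adjusted p = 0.540). Pappa and Htra1 are named for interest, with their values already known.

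Downstream of the receptor, the adaptors had 1 of 18 tested genes higher and 0 lower, with 2 lower at an unadjusted p under 0.05 and 1 called lower by voom. The call was on Crkl, an adaptor of tyrosine kinases, and was lost without any 1 library (limma adjusted p from 0.0502 to 0.114). Irs1 and Irs2, the docking proteins of the receptor, measured 8.16 ± 0.451 and 8.09 ± 0.132 FPKM and 68.0 ± 1.02 and 66.0 ± 2.01 FPKM (SD, n = 3) and were not called (limma adjusted p = 0.920 and 0.427). They too are named with their values already known. The PI3K, AKT and mTOR arm had 3 of 28 higher and 3 lower. Inppl1, a lipid phosphatase that acts against PI3K products, rose from 28.7 ± 0.945 to 33.4 ± 0.154 FPKM (SD, n = 3, limma adjusted p = 0.00866). Pik3r3, a regulatory subunit of PI3K, fell from 3.45 ± 0.0931 to 2.69 ± 0.164 FPKM (SD, n = 3), by 0.27 on the log2 scale (limma adjusted p = 0.0255). Deptor, an inhibitor of mTOR, fell from 1.63 ± 0.128 to 1.05 ± 0.0826 FPKM (SD, n = 3), by 0.36 (limma adjusted p = 0.0272). Deptor lies near the minimum of 1 FPKM, where log2(FPKM + 1) understates the change, and its log2 difference with voom was -0.63. The call on Pik3r3 held only when the library left out was Ad-SPTBN1 replicate 2 (otherwise 0.0648 to 0.0852), and that on Deptor only when it was Ad-scramble replicate 2 (otherwise 0.0563 to 0.0860).

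FOXO factors are held inactive by AKT. Among 18 tested FOXO factors and targets, 2 rose and 0 fell, with 1 lower at an unadjusted p under 0.05 and 0 called lower by voom. Gadd45a, a growth arrest gene that p53 also controls, rose from 45.2 ± 0.535 to 50.8 ± 0.368 FPKM (SD, n = 3, limma adjusted p = 0.00922). Bcl6, a transcriptional repressor, rose by 0.23 on the log2 scale (limma adjusted p = 0.0345), a call that held only when the library left out was Ad-SPTBN1 replicate 1 (otherwise 0.0656 to 0.110).

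Igf2 and Igf2r belong to a network of imprinted genes. Of 12 tested genes of that network 0 rose and 3 fell, where 5.54% of all tested genes rose and 5.50% fell. At an unadjusted p under 0.05, 0 were higher, and voom called 0 higher. H19, the noncoding RNA gene that neighbours Igf2 and is read from the maternal copy, measured 138.99, 141.56 and 143.18 FPKM in the Ad-scramble libraries and 126.20, 120.86 and 123.30 FPKM in the libraries labelled Ad-SPTBN1. The groups stood apart, with a log2 difference of -0.19 ± 0.03 for H19 (SE, n = 3, limma adjusted p = 0.00663), while Igf2 was at 1.71 to 2.16 FPKM in all libraries. Mest fell from 17.7 ± 0.327 to 14.2 ± 0.274 FPKM (SD, n = 3, limma adjusted p = 0.00311). Cdkn1c, a cell cycle inhibitor, fell from 10.5 ± 0.517 to 8.94 ± 0.327 FPKM (SD, n = 3, limma adjusted p = 0.0330), a call that held only when the library left out was Ad-scramble replicate 3 (otherwise 0.0536 to 0.104).

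**Figure D4:**
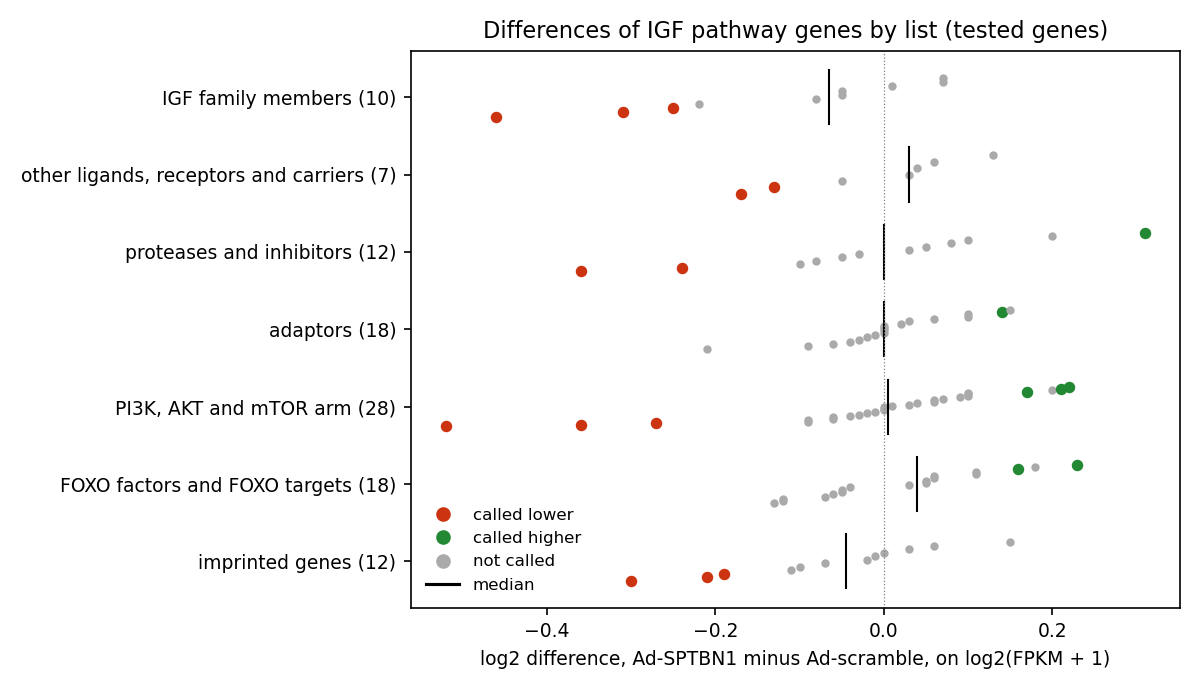
Log2 difference of each tested gene on log2(FPKM + 1), Ad-SPTBN1 minus Ad-scramble, by list, with the number of tested genes in brackets; coloured points passed the limma threshold and black lines are medians. In the IGF family the 3 called genes are all lower, at -0.46, -0.31 and -0.25, while the PI3K, AKT and mTOR arm has 3 lower and 3 higher.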

How the data were processed

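The authors deposited FPKM values per gene for 6 libraries in 1 table. Sequencing libraries came from total RNA by the NEBNext Ultra protocol, per the labels' protocols, and the builds GRCm38 and mm10 are named per the submitters' processing notes. Not given in the sources used here are the aligner, counter, annotation release and strand use. Columns were joined to libraries by the sample number in the labels. The test was limma 3.58.1 (R 4.3.3, intensity-dependent prior) on log2(FPKM + 1), adjusted by Benjamini-Hochberg over the 12608 genes whose mean reached 1 FPKM, and differences on that scale understate the change of low genes. A call is an adjusted p under 0.05. Reads were recovered using GENCODE M21 exon lengths, and 95.5% to 95.7% of values above 0 were whole within 0.1 read, as were 54 of 60 values of the 10 genes, the others being those of Igf2r, whose read numbers are approximate. The test was checked on simulated reads with the same spread set for all genes, which does not measure error rates in these libraries. The 10 genes and the lists were chosen with earlier results of these data known. Named are the 10 genes, Sptbn1, up to 4 called genes per list with the smallest p (or the 2 most abundant) and the 3 genes most like each called binding protein. The cell markers named singly were picked with their values in view. A few genes that this rule names are not reported here. Proteins were not compared here. Promoters are from RefSeq, and all 10 symbols matched.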

Additional observations from a re-analysis of the deposited data

How the results depend on the processing

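The falls of Igfbp4, Igfbp5 and Igfbp6 kept their direction and call under all 16 alternatives, at log2 differences of -0.49 to -0.42, -0.27 to -0.22 and -0.33 to -0.28. The count of family genes called lower, 3 in the report, was 3 to 4 when 1 library was left out and 5 with voom on recovered reads, which added Igf1 and Igfbp3. No alternative called a family gene higher. Igf1r, not called, ranged from -0.01 (without Ad-SPTBN1 replicate 2) to 0.02 with 1 library left out, against 0.01.

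Of the other pathway genes 7 were called higher and 10 lower. Without a filter on low values these counts were 3 and 5, with the replicate number as a block 3 and 5, and with voom 11 and 13; leaving out 1 library gave 3 to 4 and 4 to 8. The count over all genes, 1391, was 665 without a filter, 730 with the replicate block, 2150 with voom and 622 to 864 with 1 library left out. Libraries with the same number did not deviate together (correlations of 0.006, -0.034 and 0.010). As deviations were taken from means of only 3 libraries, this cannot decide whether the numbers mark paired cultures. The cause of these changes was not tested. Igf2, Pik3r3, Deptor and Bcl6 have no value under the minimum of 5 FPKM. Low read numbers limit Igf2 most, and its value is also uncertain through the overlap with Gm49394.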
